A study of Homo sapiens with 6 samples.

Results

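The guanylate-binding proteins GBP1 to GBP5 are 5 neighbouring genes on chromosome 1, and all 5 were found among the 37902 genes measured by RNA sequencing in ARPE-19 cells with and without POLDIP2. ARPE-19 is an established line of human retinal pigment epithelial (RPE) cells, and POLDIP2 encodes a polymerase delta-interacting protein. The family was chosen on measured values, since the large difference of GBP2 between the lines was already known. The GBP2 difference is therefore given as a description, and its place in counts of called genes supports nothing, whereas the other members ask whether the rise was confined to GBP2.

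The 3 POLDIP2 KO libraries came from ARPE-19 cells with the POLDIP knockout genotype and the 3 WT libraries from unedited ARPE-19 cells, all under regular maintenance and collected at day 3. The KO line was made by lentiviral delivery of SpCas9 and a guide RNA (lentiCRISPRv2), puromycin selection and expansion without a described cloning step. The parental WT line carries no vector, so loss of POLDIP2 and the effects of vector, Cas9 and selection cannot be told apart. Replicates are labelled as biological. The labels say nothing more on separate cultures, so the p-values measure the spread between these samples, which may in part be technical. Recovered reads ranged from 31532797 to 45795509 per library. POLDIP2 itself measured 3919 to 4827 normalised counts in the WT line and 1063 to 1248 in the KO line, without overlap. RPE genes such as KRT8, KRT18, MITF and OTX2 were detected in every library, whereas RPE65, RGR and TTR, which define mature RPE, were at 0 in all 6.

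Guanylate-binding proteins are large GTPases and are among the most strongly interferon-inducible proteins of human cells. They assemble on the membranes of intracellular bacteria and parasites and on their vacuoles, and they help to bring cytosolic lipopolysaccharide to caspase-4. GBP1 is farnesylated and GBP2 and GBP5 are geranylgeranylated, lipid anchors through which these members bind membranes. Interferon gamma acts in part through the transcription factor IRF1, and interferon-stimulated response elements (ISRE) near the start of GBP genes are bound by IRF-containing complexes.

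All 5 genes lie on the minus strand of chromosome 1 (GRCh38) within 266 kb. GBP3 spans 89006679 to 89022894, GBP1 spans 89051882 to 89065360 and GBP2 spans 89106132 to 89150456. GBP4 spans 89181144 to 89198942 and GBP5 spans 89256189 to 89272860. The GBP2 model overlaps that of GBP7 on the same strand, and GBP7 was at 0 in all 6 libraries. GBP1P1, a pseudogene, was also at 0, and GBP6 averaged 3.60 (WT) and 3.17 (KO) normalised counts.

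RefSeq promoter windows (GRCh38.p14), which run from 250 bases before to 50 bases after a gene start, matched 3 of the 5 members, GBP1, GBP3 and GBP4. GBP2 and GBP5 had no entry. The windows were searched on both strands for the ISRE core GAAANNGAAA, and the stretches are shown because all 3 matched windows held it once, as TTTCNNTTTC on the gene's strand. The lines give 10 bases on either side of the match, which is in capitals.
GBP1, chr1:89065316-89065345, minus strand: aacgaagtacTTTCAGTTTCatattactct
GBP3, chr1:89022845-89022874, minus strand: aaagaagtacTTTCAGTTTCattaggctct
GBP4, chr1:89198927-89198956, minus strand: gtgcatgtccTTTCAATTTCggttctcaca

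The match began 127 bases before the RefSeq start of GBP1, at base 3 of the GBP3 transcript and 4 bases before the start of GBP4. Of all 35116 promoter windows of this length, 3.57% held the ISRE core. Aligned on the match, GBP1 and GBP3 were identical at 70 of 90 bases (70 before the match, the match and 10 after it). GBP1 and GBP4 were identical at 25 of these 90 bases. The interferon gamma-activated site (GAS) motif TTCNNNGAA was found in the GBP3 window but not in those of GBP1 and GBP4, against 7.66% of all windows. A match to the NF-kB consensus was found in the GBP4 window alone of these 3, against 11.3% of all windows. These matches describe letters and are not evidence of binding.

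GBP2 stood out from the other 4 members. It was barely expressed in WT and was raised by more than an order of magnitude in POLDIP2 KO. In WT, GBP2 had 28.3, 9.03 and 15.7 normalised counts in replicates 1, 2 and 3, from 30, 9 and 15 reads. In POLDIP2 KO it had 442, 217 and 291 normalised counts, from 359, 267 and 293 reads. The lowest KO library was above the highest WT library. The means were 17.7 ± 9.81 (SD, n = 3) in WT and 317 ± 114 (SD, n = 3) in POLDIP2 KO, 17.9-fold apart. By replicate number the KO to WT ratio of GBP2 was 15.6, 24.1 and 18.6. On the log2(normalised count + 1) scale the difference was 4.16, and its fitted 95% confidence interval of 3.07 to 5.26 is likewise a description.

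**Figure D1:**
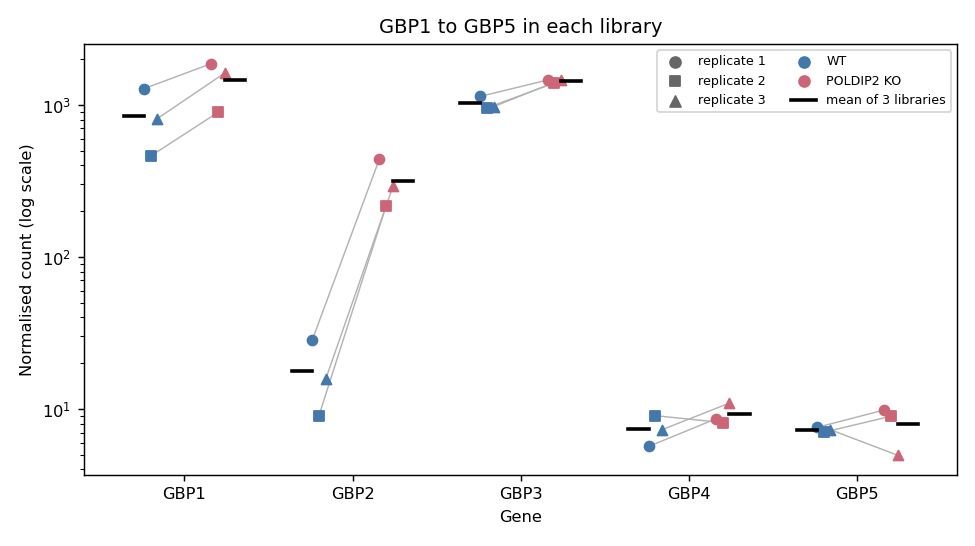
Normalised counts (log axis) of GBP1 to GBP5 in the 3 WT and 3 POLDIP2 KO libraries, with grey lines joining libraries of the same replicate number and black bars for the mean of each line. GBP2 moved from 9.03 to 28.3 in WT to 217 to 442 in POLDIP2 KO, whereas GBP4 and GBP5 stayed near or under 10 in both lines.

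GBP1, the best-studied member, which coats cytosolic bacteria, was already abundant in WT. The WT libraries had 1277, 461 and 812 normalised counts and the KO libraries had 1869, 892 and 1619.5. The lines overlapped, since WT replicate 1 was above KO replicate 2. The means were 850.0 ± 409.6 (SD, n = 3) and 1460.1 ± 507 (SD, n = 3). The limma estimate was 0.83 on the log2 scale (95% confidence interval -0.15 to 1.82), and its adjusted p was 0.888. GBP1 was higher in POLDIP2 KO in 3 of 3 same-numbered pairs, by 1.46-fold, 1.94-fold and 1.99-fold. Once same-numbered libraries were blocked, the interval by limma narrowed to 0.51 to 1.16 and the adjusted p was 0.0992. The exact permutation test over libraries (two-sided) gave p = 0.2, where the smallest p that 3 against 3 can give is 0.1.

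GBP3 showed a small and even difference. The WT libraries had 1136, 957 and 974 normalised counts and the KO libraries had 1458, 1391 and 1467, so that the lines did not overlap. The means were 1023 ± 99.0 (SD, n = 3) and 1439 ± 41.2 (SD, n = 3). The limma estimate was 0.50 on the log2 scale (95% confidence interval 0.23 to 0.77), or 1.41-fold (1.17 to 1.70). The unadjusted p was 0.00339 and the limma adjusted p was 0.256, so GBP3 did not pass the test. GBP3 was higher in 3 of 3 same-numbered pairs, by 1.28-fold, 1.45-fold and 1.51-fold, and the exact permutation p was 0.1, the smallest possible. With the replicate block its limma adjusted p was 0.155.

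GBP4 and GBP5 were near the detection floor, where 3 reads correspond to 2.44 to 3.69 normalised counts. GBP4 had 6, 9 and 7 reads in WT and 7, 10 and 11 in POLDIP2 KO. GBP5 had 8, 7 and 7 reads in WT and 8, 11 and 5 in POLDIP2 KO. Both genes fell under the filter on low values, a mean of 10 normalised counts over the 6 libraries, and the lines overlapped for both. Fitted by limma without that filter, GBP4 was 1.24-fold higher (95% confidence interval 0.578 to 2.64) and GBP5 was 1.04-fold higher (0.474 to 2.28). DESeq2 on the recovered reads gave wider intervals, 0.398 to 3.98 for GBP4 and 0.323 to 3.63 for GBP5. With the replicate block these reached 6.06 for GBP4 and 5.35 for GBP5. The exact permutation p was 0.3 for GBP4 and 1.0 for GBP5. All of these intervals ended below the 17.9-fold difference of GBP2, whose own limma interval began at 8.38-fold. A difference of either gene within these intervals, up to several-fold, was not detectable at this depth.

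**Figure D2:**
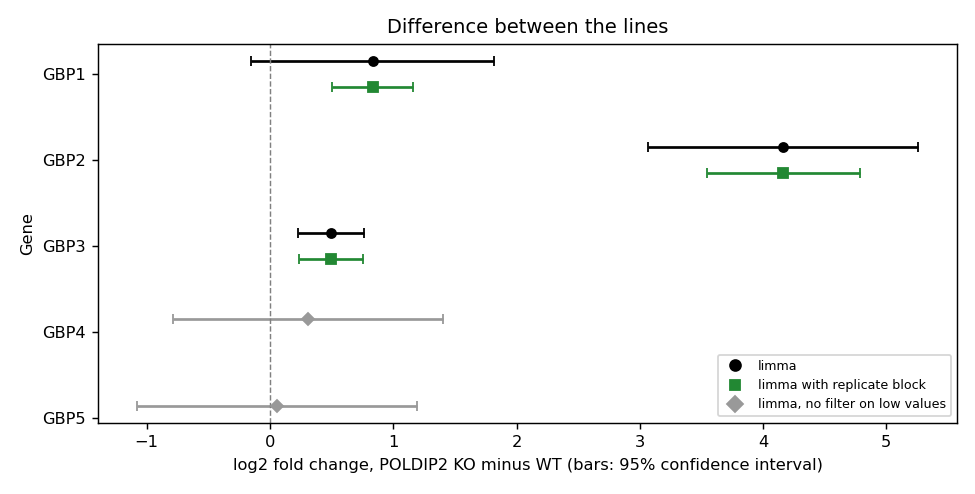
The log2 fold change (POLDIP2 KO minus WT) of each member with its 95% confidence interval, by limma, by limma with the replicate block, and, for GBP4 and GBP5, by limma without the filter on low values. GBP2, which led to the choice of the family, lies at 4.16, the GBP3 interval (0.23 to 0.77) lies above 0, and those of GBP1 without the block (-0.15 to 1.82), GBP4 and GBP5 include 0.

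The number of members called depended on the test. A gene was called at an adjusted p under 0.05 and a fold change over 1.5. By limma, 1 member (GBP2) was called, against 0.0817% of 14684 tested genes called higher, and with the replicate block again 1, against 0.116%. DESeq2 on the recovered reads called 1 member, against 0.724% called higher. DESeq2 gave GBP3 an adjusted p of 0.0280 with a fold change of 1.41, under the fold threshold. DESeq2 with the replicate block called both GBP1 and GBP2, against 1.18%, with an adjusted p of 6.95e-05 for GBP1 and a log2 fold change of 0.83. GBP2 and GBP3 did not overlap between the lines, as did 5.46% of all tested genes in this direction. GBP1, GBP2 and GBP3 were higher in all 3 same-numbered pairs, as were 17.0% of tested genes. These counts include GBP2, the gene whose values chose the family, and nothing is read from its part in them. Of these 4 fits, GBP1 was called by DESeq2 with the replicate block only, and the pairing that the block assumes is uncertain.

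Within each library the members were next compared with each other, which removes what all of them share. The log2 ratio of GBP2 to GBP1 was -5.45, -5.52 and -5.61 in WT and -2.08, -2.03 and -2.47 in POLDIP2 KO. The ratio was thus nearly the same in the 3 WT libraries (SD 0.082), although GBP1 and GBP2 each varied several-fold among them. GBP2 had only 30, 9 and 15 reads there, too few for so small a spread to be read as a close link. The ratio was higher by 3.33 in POLDIP2 KO. GBP2 likewise moved by 3.67 against GBP3, by 3.86 against GBP4 and by 4.11 against GBP5, with no overlap between the lines in any of these ratios. These 4 ratios contain GBP2 and have no test. The 6 ratios without GBP2 changed by 0.19 to 0.77, with exact permutation p-values of 0.1 to 0.7 and adjusted values of 0.6 to 0.7. These tests do not pair the libraries. By replicate number, the ratios of GBP1 to GBP3, GBP1 to GBP4, GBP1 to GBP5 and GBP3 to GBP5 were higher in POLDIP2 KO in 3 of 3 pairs. The ratio of GBP1 to GBP3 changed by 0.34 (exact permutation p = 0.6), and that of GBP3 to GBP5, which did not overlap between the lines, by 0.44 (exact permutation p = 0.1).

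**Figure D3:**
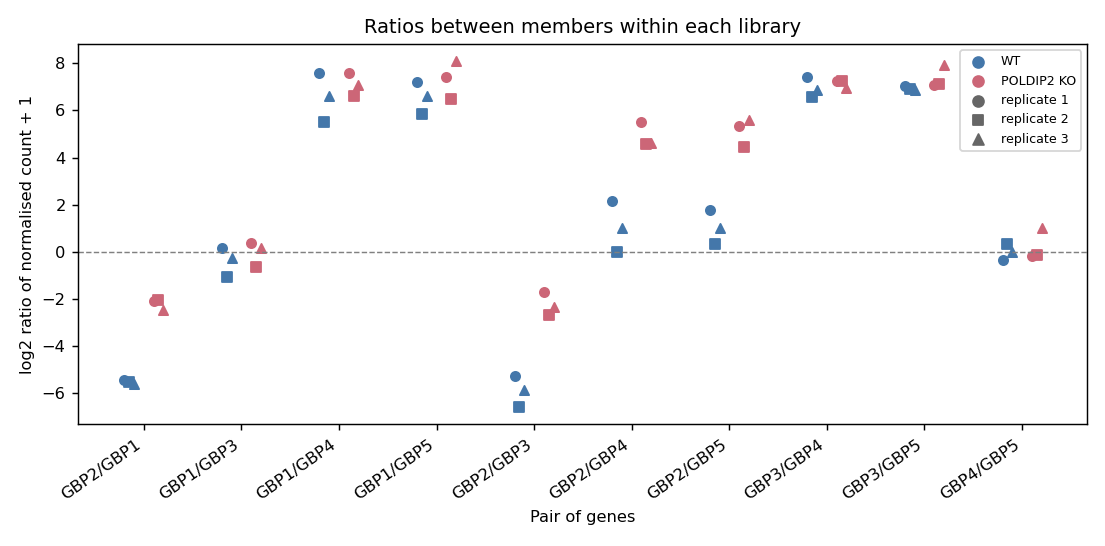
The log2 ratio of normalised count + 1 for each pair of members in each of the 3 WT and 3 POLDIP2 KO libraries, with symbols for the replicate number. The 4 ratios with GBP2 as the numerator are separated between the lines by 3.33 to 4.11, and the 6 ratios without GBP2 changed by 0.77 or less.

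GBP1 and GBP2 also had the same order of libraries within each line. Both were highest in replicate 1, intermediate in replicate 3 and lowest in replicate 2, in WT and in POLDIP2 KO. Such an identical order of replicate numbers in the 2 lines was found for 4100 of 14684 tested genes (27.9%). IRF1, an interferon-induced transcription factor, also kept the same order in both lines, the reverse of that of GBP1 and GBP2. It had 272, 619 and 467 normalised counts in the WT libraries and 486, 1142 and 849 in the KO libraries. A link between IRF1 and the GBP genes was not tested.

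Per kilobase of merged exons, GBP3 and GBP1 were the most abundant members in both lines. The level in WT was 239 ± 23.1 (SD, n = 3) for GBP3, 139 ± 67.1 for GBP1, 2.45 ± 1.36 for GBP2, 1.19 ± 0.274 for GBP4 and 0.666 ± 0.0244 for GBP5, in normalised counts per kilobase. GBP2 overlapped GBP4 in WT. In POLDIP2 KO the level of GBP2 per kilobase was 43.8 ± 15.8 (SD, n = 3), above that of GBP4 and below that of GBP1 at 239, with no overlap. GBP2 made up 0.414% to 0.817% of the summed level per kilobase of the 5 members in WT and 5.98% to 8.61% in POLDIP2 KO. The order of GBP1 and GBP3 in POLDIP2 KO depended on the length used. GBP3 was higher per kilobase of merged exons, 336 against 239, whereas GBP1 was higher per kilobase of the canonical transcript, 506 against 474, with overlapping libraries.

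Reads could in principle be shared among such similar genes. Of all 100-base windows of the canonical transcripts, the read length used, none of GBP2, GBP3, GBP4 or GBP5 occurred in a transcript of another family gene. For GBP1 the share was 1.98%, all of it with GBP1P1. For 31-base windows the share was 26.8% in GBP1, 11.9% in GBP3 and 4.36% in GBP2.

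The neighbouring genes were described in the same way. Of 24 other genes within 1 Mb of GBP2 in the table, 10 passed the filter and 0 were called by limma or DESeq2, with or without the replicate block. Limma called 0.17% of all tested genes in either direction, so a count of 0 among 10 does not set these genes apart. Their log2 fold changes ran from -0.76 to 0.46, and the lowest limma adjusted p was 0.981. The nearest tested genes on either side were KYAT3, a kynurenine aminotransferase, at -0.04 (95% confidence interval -0.35 to 0.26) with RBMXL1 at -0.76, and LRRC8B, a volume-regulated anion channel subunit, at -0.44 (-1.29 to 0.41). At an unadjusted p under 0.05 none of these 10 genes differed either, since all their intervals included 0. By limma, 951 of all 14684 tested genes were under that value, so a count of 0 again does not set these genes apart.

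**Figure D4:**
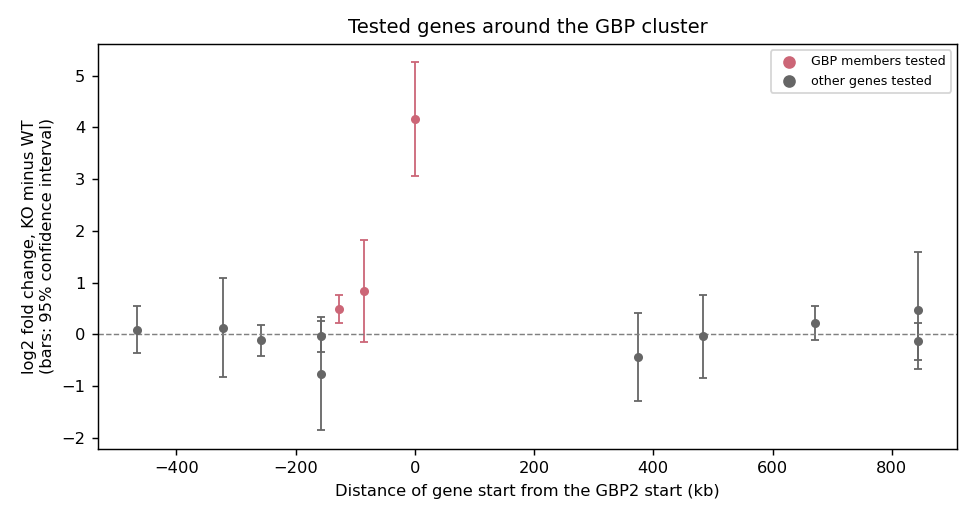
The limma log2 fold change (POLDIP2 KO minus WT) with its 95% confidence interval for the 3 tested GBP members and 10 other tested genes within 1 Mb, by distance of the gene start from that of GBP2 in kb. GBP2 lies at 4.16, and the 10 other genes lie between -0.76 and 0.46.

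Among the interferon signalling genes that act upstream of the GBPs, a call was made for IRF1 alone, in 1 of the 4 fits (limma and DESeq2, each with and without the replicate block). The interferon genes IFNG, IFNA1 and IFNB1 had 0 recovered reads in all 6 libraries. Expression too low to be detected at this depth is not excluded. Of 12 interferon gamma signalling genes, 10 were tested and 0 were called by limma or by DESeq2 without the block (0.17% of all genes by limma), with a median log2 fold change of 0.15. The log2 fold change was positive for 8 of these 10. The median of all genes tested was -0.0003, of which 12 were called higher and 13 lower. IRF1 differed by 0.86 on the log2 scale (95% confidence interval -0.07 to 1.79), was higher in 3 of 3 pairs, and had a limma adjusted p of 0.830, or 0.0725 with the replicate block. DESeq2 with the replicate block called IRF1 (adjusted p = 2.41e-05), as it called 1.18% of genes higher, whereas DESeq2 without the block did not (adjusted p = 0.466). IFNGR2 had the highest value of the interferon gamma signalling genes, at 1.01 (95% confidence interval -0.32 to 2.35), and the lines overlapped. Of the type I interferon signalling genes, 6 were tested and 0 called by limma (0.17% of all genes) or DESeq2. Their median was 0.19, and all 6 had a positive log2 fold change, as did 7334 of all 14684 tested genes. IFNAR1 and TYK2, 2 of the 6, did not overlap between the lines, against 5.46% of all tested genes in this direction.

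The genes that respond to interferon had medians slightly above that of all genes. Of 18 interferon gamma responsive genes, 9 were tested and 0 called by limma, which called 0.17% of all genes, with a median log2 fold change of 0.21. DESeq2, which called 0.724% of genes higher, called 1 of them, ICAM1. The chemokines CXCL9 and CXCL11 were at 0 in all 6 libraries and CXCL10 had 1 read in 1 KO library. A positive log2 fold change was found for 7 of the 9. TAP1, a peptide transporter of antigen presentation, was at 0.26, and CD274, the checkpoint ligand PD-L1, was at -0.47. NLRC5 was at 0.89 (95% confidence interval 0.01 to 1.76), with overlapping lines and a limma adjusted p of 0.765. ICAM1, a leukocyte adhesion molecule that NF-kB also drives, had the highest value of the list at 1.56. Of 20 type I interferon responsive genes, 15 were tested and 0 called by limma or DESeq2, with a median of 0.45. A positive log2 fold change was found for 13 of the 15, and for 7334 of all 14684 tested genes. The values ran from -0.43 for BST2, which tethers budding virus, to 1.64 for IFI27 (95% confidence interval -1.09 to 4.36). IFI44 was the 1 gene of the 15 that did not overlap between the lines, at 0.88 (0.10 to 1.66) and higher in 3 of 3 pairs. Of all tested genes, 5.46% were likewise higher in POLDIP2 KO without overlap. The antiviral RNA sensor OAS1 was at 1.19, the ISG15 ligase HERC5 at 0.91, IFIT1, an RNA-binding antiviral protein, at 0.45, and the antiviral GTPase MX1 at 0.03.

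Several NF-kB responsive genes rose in POLDIP2 KO. Of 22 genes, 20 were tested and 5 were called higher by limma, against 0.0817% of all tested genes, and none lower, with a median log2 fold change of 1.86 and a range of 0.01 to 5.49. The 5 were IL1B at 5.49, a proinflammatory cytokine, TNFAIP3 at 2.26, an inhibitor of NF-kB, SOD2 at 2.23, the mitochondrial superoxide dismutase, CCL2 at 2.16, a monocyte chemokine, and NFKBIZ at 1.54, a nuclear regulator. Of the 20, 16 did not overlap between the lines with the KO line higher, against 5.46% of all tested genes. DESeq2 called 13, against 0.724%, and with the replicate block 15, against 1.18%, where it gained CXCL3 (adjusted p = 0.000223) and TRAF1 (adjusted p = 0.0439). In limma with the replicate block, TNFAIP3 lost its call (limma adjusted p = 0.0586) and PTX3, a soluble pattern recognition protein, gained one (0.0477). IL1B and CXCL1 averaged 6.63 and 2.26 normalised counts in WT, under the filter of 10. Both passed it through the KO libraries alone, so nothing is read from their part in these counts. The list was chosen with the rise of several of its genes known and is no independent evidence of its direction.

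**Figure D5:**
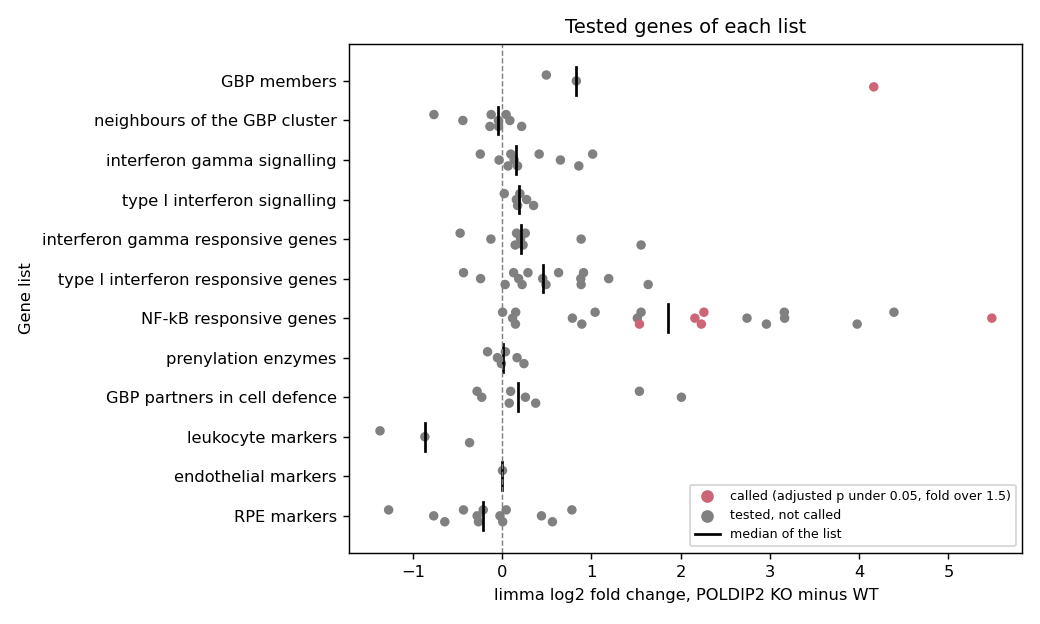
The limma log2 fold change (POLDIP2 KO minus WT) of every tested gene of each list, with a black bar for the list's median and red points for genes called at an adjusted p under 0.05 and a fold change over 1.5. The NF-kB responsive genes, a list chosen with the rise of several of its genes known, have 5 called genes and a median of 1.86. The interferon signalling and response lists have none called and medians of 0.15 to 0.45. The difference between the lists was not tested.

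Among genes that act with the GBPs, 8 of 13 were tested and 0 were called by limma, which called 0.17% of all genes, with a median log2 fold change of 0.18. CASP1, which processes interleukin-1 beta, had 84.1, 59.2 and 44.9 normalised counts in the WT libraries and 282, 225 and 238 in the KO libraries, a log2 fold change of 2.01. CASP4, the human receptor of cytosolic lipopolysaccharide, had 67.1, 37.1 and 53.3 in WT and 201, 122 and 138 in POLDIP2 KO, a log2 fold change of 1.54. Neither gene overlapped between the lines (as for 5.46% of all genes), neither passed the limma threshold (adjusted p = 0.0720 and 0.210), and both were called by DESeq2, which called 0.724% of genes higher. GSDMD, the pore-forming gasdermin, was at 0.08, and CASP5, AIM2 and IRGM were at 0 in all 6 libraries. The 6 listed prenylation enzymes, which attach such lipid anchors or process the proteins that carry them, were all tested. Limma called 0 of these 6, against 0.17% of all genes, with a median of 0.01 and a range of -0.16 to 0.25.

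Markers of other cell types were low. In bulk samples, fewer cells of a type and less RNA per cell cannot be told apart. Of 12 leukocyte markers 6 were at 0 in all libraries, among them CD3E, MS4A1, AIF1, TYROBP and NKG7, and the summed level was lower in POLDIP2 KO (39.4 to 51.6 normalised counts) than in WT (74.1 to 84.3). PTPRC, the pan-leukocyte gene CD45, was at 0 in the 3 WT libraries and at 1.23, 3.26 and 6.95 normalised counts in POLDIP2 KO. Of 8 endothelial markers 1 was tested, and the summed level was 25.1 to 42.1 in WT and 26.8 to 58.6 in POLDIP2 KO. Of 18 RPE markers 13 were tested and 0 called by limma, with a median log2 fold change of -0.21. Limma called 0.17% of all tested genes in either direction, so this count does not set the markers apart. Of the 13, 5 had a positive log2 fold change. LRAT (-1.27) and SERPINF1 (-0.77) were lower in POLDIP2 KO without overlap between the lines, as were 799 of all 14684 tested genes. Their limma adjusted p-values were 0.731 and 0.822, and 0 of the 13 were higher without overlap.

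The genes with a profile most like that of GBP2 over the 6 libraries were found among the 14683 other tested genes by the root mean square difference of the centred log2 values. They were SARDH, a sarcosine dehydrogenase of mitochondria (0.392), the chemokine CXCL1 (0.429), the mitochondrial folate enzyme ALDH1L2 (0.566), the gene ENSG00000283537 (0.626) and the lysosomal protease CTSS (0.668). SARDH had 20.8, 15.1 and 19.8 normalised counts in the WT libraries and 346, 186 and 288 in the KO libraries. CXCL1 had 4.72, 1.00 and 1.04 in WT and 105, 56.2 and 34.8 in POLDIP2 KO. ALDH1L2 and CTSS were at 0 in all 3 WT libraries and passed the filter through the KO libraries alone. The genes most like GBP1 were NDST3 (0.0975), ENSG00000284041 (0.110) and SMAD6 (0.197), and those most like GBP3 were WASHC5 (0.0560), IL13RA1 (0.0580) and DERL1 (0.0581). This measure depends on the size of the difference between the lines, which was 4.16 for GBP2, 0.83 for GBP1 and 0.50 for GBP3. With that of GBP2 so much larger, no other member could be near GBP2. No GBP gene was among the few genes listed as most like GBP1 or GBP3, and nothing is read from this.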

How the data were processed

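Per the labels and the methods of the study, 100-base single-end reads of TruSeq Stranded mRNA libraries were quantified with Salmon 1.8 on GRCh38, and counts were divided by DESeq2 1.34.0 size factors. The annotation release and strand setting are not given in the sources used here. The deposited values are thus a signal, normalised counts per gene, and the authors' table gives no raw counts. Whole reads were recovered by dividing each library by its smallest value above 0, which was assumed to be 1 read. After division 100% of values were whole within 0.001, and the largest distance was 0.000345.

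Log2(normalised count + 1) was fitted with limma 3.58.1 (eBayes with trend) for the 14684 genes averaging 10 or more over the 6 libraries, and p-values were adjusted over all of them (Benjamini-Hochberg). edgeR 4.0.16 and DESeq2 1.42.0 on the recovered reads, other pseudocounts and filters, quantile normalisation, leaving out each library and a replicate block were alternatives. The code was tested on simulated data. Replicate numbers were treated as pairs because the deviations of same-numbered libraries correlated at 0.315, 0.137 and 0.129 across the 14684 genes (other pairs -0.259 to 0.147). The value of 0.147 came from WT replicate 3 with KO replicate 2, above those of same-numbered replicates 2 and 3, and the labels name no pairs. The pairing is thus uncertain, and the block is given beside results whose call it changes, in limma and in DESeq2.

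Symbols came from GENCODE 44 for 34152 identifiers and from the gene names of a supplementary table for 14. IRF9 was not matched. The members, lists and rules were chosen with earlier results of these data known. Named genes were the members, called genes of each list, those setting its range or defining it, the nearest neighbours, and the genes most like each tested member. Other genes were named after their values were seen. Values of some single list genes are not reported here.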

Additional observations from a re-analysis of the deposited data

How the results depend on the processing

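The log2 fold changes of GBP1, GBP2 and GBP3 kept their sign under all 18 alternatives run, and those of GBP4 and GBP5 under the 3 run without a filter that removes them. The number of members called was 1 and became 0 with eBayes without trend or with edgeR, 2 with DESeq2 and the replicate block, and 0 to 1 when 1 library was left out (1 without WT replicate 1 only). The number of all genes called was 25 and became 16 with a mean of at least 50, 5 with edgeR and the replicate block, 270 with DESeq2, 394 with DESeq2 and the replicate block, and 0 to 10 when 1 library was left out. By limma it was 0 without WT replicate 2 or 3 or KO replicate 2 or 3, where 862, 903, 869 and 693 genes had an unadjusted p under 0.05, and 10 without WT replicate 1 or KO replicate 1. Leaving out 1 library, the log2 fold change of GBP2 was 3.78 to 4.56, that of GBP1 0.45 to 1.19 and that of GBP3 0.45 to 0.57. The log2 ratio of GBP2 to GBP1 moved to 3.03 with a pseudocount of 5. That of GBP4 to GBP5, 0.25 with all libraries, was -0.14 without KO replicate 3 (exact permutation p = 0.8). The replicate block changed no limma call of a member. The cause of these changes was not tested. The length of the canonical transcript was added as an alternative after seeing the data. GBP4 and GBP5, at 5 to 11 reads per library, limit what depth can show.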
